A study of Homo sapiens with 6 samples.

Results

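A set of 50 genes whose products build ribosomes in the nucleolus were examined in HCT116 cells with and without PTTG1. The rule for the set goes by gene name and uses no measured value, but the members were chosen with earlier results of these data known. They are genes of RNA polymerase I transcription, of the small nucleolar ribonucleoproteins (snoRNPs) and of subunit assembly. HCT116 cells come from a colorectal carcinoma, and PTTG1 encodes securin, the inhibitor of separase. The PTTG1-/- cells were derived from HCT116 by homologous recombination, the PTTG1+/+ cells are the line that kept the gene, and both were grown untreated under standard culture conditions. The sources do not give the number of PTTG1-/- clones, so an effect of PTTG1 loss and a difference that arose in a clone cannot be told apart. Total RNA of 3 samples of each line was measured on 6 Illumina HumanHT-12 arrays of 1 colour. Of the 50 genes, 46 were paired with a probe by the platform annotation and 45 were tested, among 10642 tested genes in all. WDR43, GNL3, DDX18 and EBNA1BP2 had no annotated probe and were not analysed here. The 1 annotated probe of NPM1 was not above background on any array, so nucleophosmin, among the most abundant nucleolar proteins, was not tested.

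Ribosome production starts in the nucleolus, where RNA polymerase I transcribes the long precursor of the ribosomal RNAs. Box C/D and H/ACA snoRNPs modify the precursor by ribose methylation and pseudouridylation, and assembly factors fold it, cut it and load ribosomal proteins onto it to give the small and the large subunit. Growing cancer cells spend much of their transcription on this pathway. MYC is a well known activator of many of its genes through the E-box, a short DNA element bound by MYC with its partner MAX.

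The targeted gene was read first. PTTG1 probe ILMN_1753196 had log2 intensities of 10.77, 10.76 and 10.84 in PTTG1+/+ cells and was not above background on any PTTG1-/- array, at least 49.2-fold lower. The other PTTG1 probe, ILMN_2042771, was lower, with means of 12.03 and 11.13 (adjusted p 0.00154 by limma, each probe tested by itself), and was above background on every array. Total intensity was 1.48e+07 to 1.67e+07 per array and 35.7% to 37.3% of the 47310 probes were above background. Across genes, Pearson's r between arrays was 0.993 to 0.996 within a line and 0.986 to 0.988 between the lines. Of 10 epithelial markers, 9 were above background on every array of both lines (CLDN4 was not), and 5 were lower in PTTG1-/- cells (among them CLDN7, CDH1, ELF3 and ESRP1). These 9 had 6 negative and 3 positive log2 differences, the highest 0.24, and 0 were called higher. Of 10 fibroblast markers, 8 were above background on no array, while ACTA2 was higher in PTTG1-/- cells with a log2 difference of 0.87. The other tested fibroblast marker, COL1A1, differed by -0.15 and was not called. Of the 8 blood markers with a probe, 2 were above background on all arrays of both lines, CD68 and HBA1, both were higher in PTTG1-/- cells, and PTPRC was not detected. The call of HBA1 was lost without any 1 array other than PTTG1-/- replicate 3, with adjusted p of 0.0591 to 0.0818. Summed over each list, the linear intensity was 17692 to 18150 in PTTG1+/+ and 16409 to 17107 in PTTG1-/- cells for the epithelial list. The fibroblast sums were 442 to 499.5 against 799 to 846, and the blood sums 261 to 276 against 356 to 407. The part of these markers in the results that follow was not tested.

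The ribosome biogenesis genes changed little in PTTG1-/- cells, and the genes that passed the main test all fell. BOP1, RRP1, RRN3 and NOP56 were lower, by 1.22-fold to 1.40-fold, and no member was higher. These 4 are 8.89% of the 45 tested members, beside 7.79% of all genes called lower, 9.58% called higher and 17.4% called in either direction. A gene was called at an adjusted p under 0.05 from limma's linear model, with Benjamini-Hochberg adjustment over all genes tested. At an unadjusted p under 0.05, 6 members (13.3%) were lower and 2 (4.44%) were higher, beside 14.7% and 16.9% of all genes. The share of members called lower is near that of all genes. The count of 4 was 2 without any 1 PTTG1+/+ array, 3 without PTTG1-/- replicate 1 or 2 and 5 without PTTG1-/- replicate 3. Of all genes, 4.13% to 5.16% were called lower without any 1 PTTG1+/+ array. Without PTTG1-/- replicate 1, 2 or 3 the shares of all genes were 5.29%, 4.49% and 9.60%. In bulk RNA, less of a transcript per cell and fewer cells that carry it cannot be told apart. Separate cultures are not stated for the 3 samples of each line, so the spread behind the p-values may be only technical.

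Small differences leaned downward. Of the 45 members, 33 had a negative log2 difference (PTTG1-/- minus PTTG1+/+), or 73.3%, against 49.8% of all genes. The median difference was -0.07 over the members and 0.0010 over all genes, and the members ranged from -0.49 to 0.20. The median size of the difference, without its sign, was 0.126 for the members and 0.140 for all genes. For 43 of the 45 members, or 95.6%, the 95% confidence interval lay within a change of 1.5-fold either way, against 86.0% of all genes. The median deviation of the members from their own mean over the 6 arrays was 0.026, 0.024 and 0.039 in PTTG1+/+ cells and -0.032, -0.053 and -0.017 in PTTG1-/- cells, so the lines did not overlap.

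**Figure D1:**
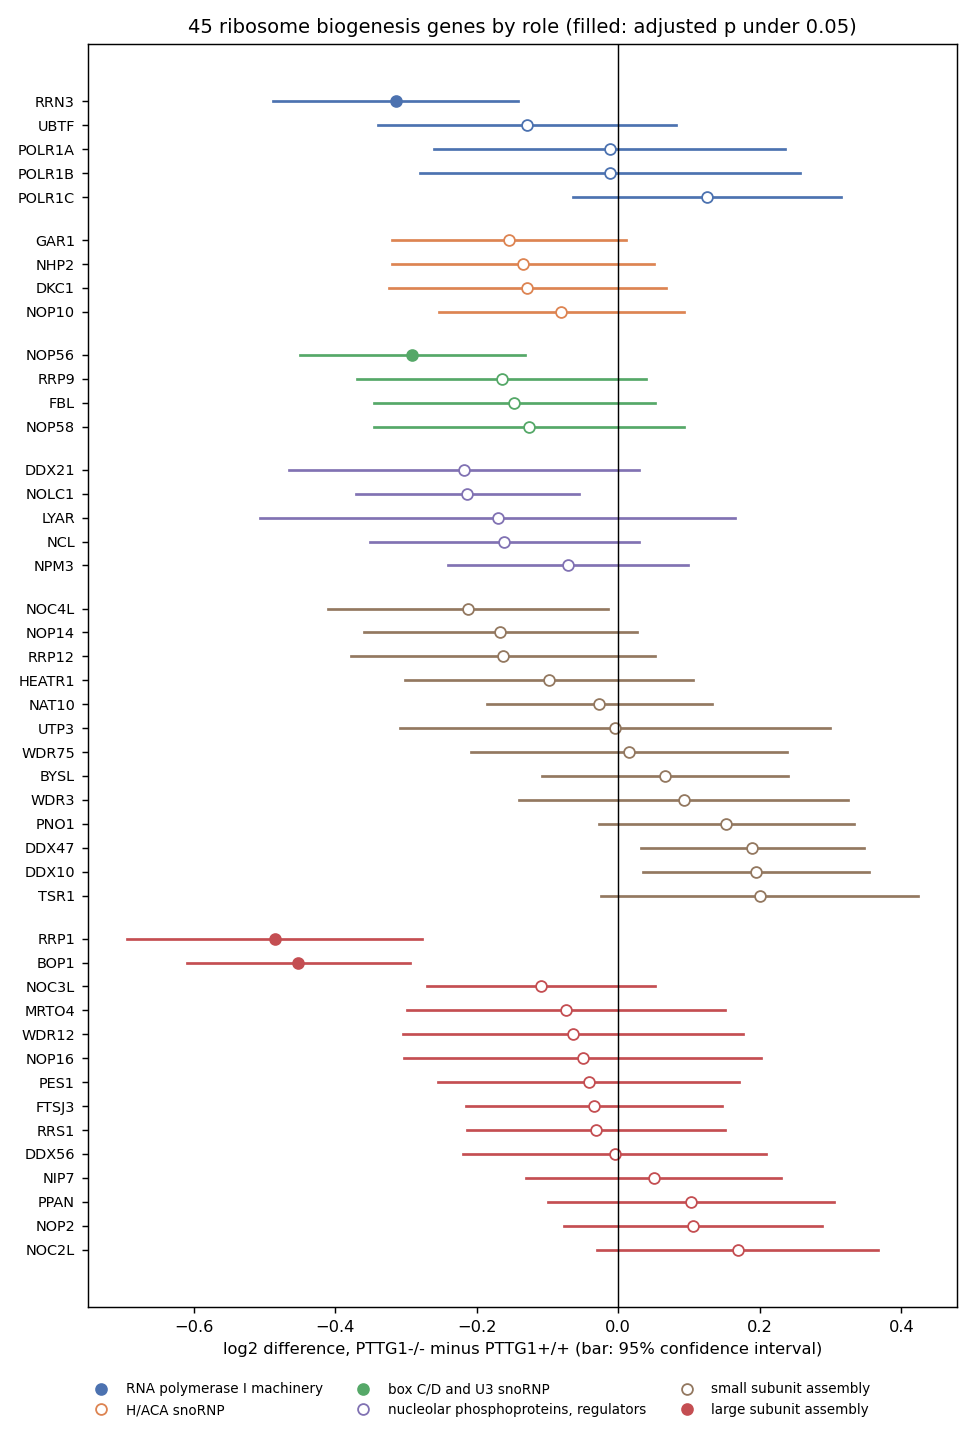
Log2 difference of each of the 45 tested members (PTTG1-/- minus PTTG1+/+, 3 arrays each) with its 95% confidence interval, grouped by role. Filled points passed an adjusted p of 0.05. The 13 snoRNP and nucleolar phosphoprotein genes all lie below zero, while the 13 small subunit genes lie on both sides.

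In 10 members every PTTG1-/- array lay below every PTTG1+/+ array, and in 4 every one lay above. These 14 members are 31.1% of those tested, beside 36.1% of all genes whose arrays did not overlap, with every PTTG1-/- array below in 22.2% of members and 16.7% of all genes, and above in 8.89% and 19.5%. The 10 below were BOP1, RRP1, RRN3, NOP56, NOLC1, GAR1, NOP14, RRP12, NOC3L and NOC4L, and the 4 above were DDX10, DDX47, NOC2L and PNO1. For a single gene with 3 arrays a line, the exact two-sided permutation test cannot give a p below 0.1. Arrays that do not overlap always give that value, so for these 14 genes it adds nothing to the separation.

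**Figure D2:**
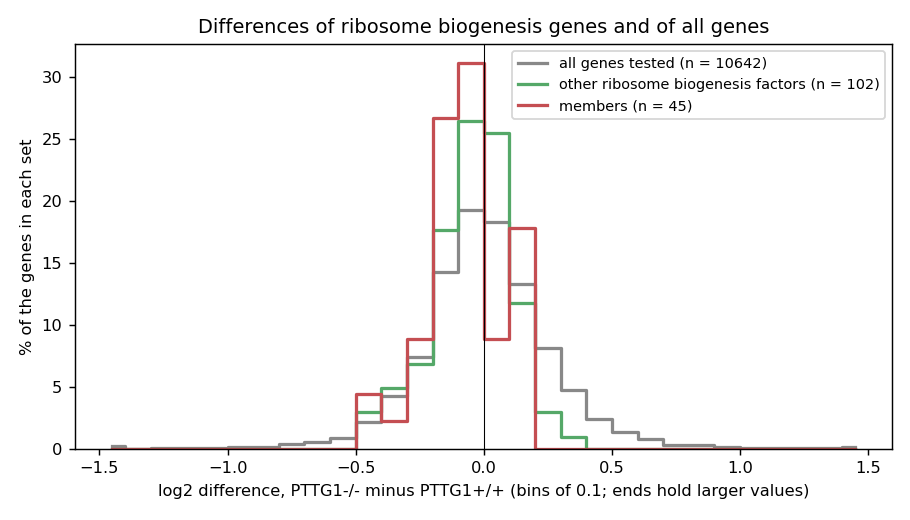
Share of genes in each bin of 0.1 in log2 difference (PTTG1-/- minus PTTG1+/+) for the 45 members, 102 other ribosome biogenesis factors and all 10642 genes tested. The members lie between -0.49 and 0.20, and their peak lies just below zero.

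Among the genes of RNA polymerase I transcription, RRN3 fell. RRN3 is the initiation factor TIF-IA, which makes the polymerase competent to start on ribosomal DNA. Its log2 intensity was 8.99, 9.09 and 9.02 in PTTG1+/+ cells and 8.74, 8.78 and 8.64 in PTTG1-/- cells. The lines did not overlap, with a log2 difference of -0.31 ± 0.077 (SE, n = 3 per line), 1.24-fold lower, at an adjusted p of 0.0232 by limma. Without any 1 of the 3 PTTG1+/+ arrays or without PTTG1-/- replicate 1 the call was lost, and over all 6 omissions the adjusted p ran from 0.0377 to 0.0990. RRN3 has transcribed pseudogenes, and reads of near-identical copies can share a probe. The probes annotated to RRN3P1 and RRN3P3 were not above background on any array, and that of RRN3P2 differed by -0.07 with an adjusted p of 0.808.

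The other genes of this group did not pass the test. POLR1A and POLR1B, the largest catalytic subunits of the polymerase, each differed by -0.01, with 95% intervals from -0.26 to 0.24 and from -0.28 to 0.26. POLR1A read only 5.30 to 5.71 over the arrays, close to background. A further POLR1B probe differed by -0.12, with an adjusted p of 0.548 by limma when tested by itself. POLR1C, a subunit shared with RNA polymerase III, differed by 0.13 and UBTF, the upstream binding factor of ribosomal DNA, by -0.13, with adjusted p of 0.346 and 0.387. Of 17 further genes of RNA polymerase I and its factors, 1 was higher, 0 were lower, and their median difference was -0.03. The gene that rose was TTF1, the terminator of ribosomal DNA transcription, with a log2 difference of 0.25 and an adjusted p of 0.0445. Its call was lost without any 1 of the 6 arrays.

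All 8 tested snoRNP genes had negative differences, and 1 of them passed the test. NOP56, a core protein of the box C/D snoRNPs, fell. Its log2 intensity was 12.02, 11.98 and 11.99 in PTTG1+/+ cells and 11.74, 11.68 and 11.69 in PTTG1-/- cells. The lines did not overlap, with a difference of -0.29 ± 0.0705 (SE, n = 3 per line), 1.22-fold lower, at an adjusted p of 0.0221 by limma. The call was lost without any 1 of the 3 PTTG1+/+ arrays or without PTTG1-/- replicate 2, with adjusted p from 0.0301 to 0.0746 over the 6 omissions. NOP56 was read by 3 probes, which differed by -0.39, -0.29 and -0.19. With each probe tested by itself by limma, their adjusted p were 0.0551, 0.0367 and 0.465, so only the brightest passed. The other 3 genes of this group had differences of -0.13 for NOP58, the partner of NOP56, -0.15 for FBL, the ribose methyltransferase fibrillarin, and -0.16 for RRP9, a protein of the U3 snoRNP. None passed the test, with adjusted p of 0.250 to 0.420. Within arrays, NOP56 minus FBL was lower in PTTG1-/- cells by a mean of -0.14 without overlap (exact permutation p = 0.1), and NOP56 minus NOP58 by -0.17 with overlap (exact permutation p = 0.3). These pairs, and those of BOP1 below, were chosen after their values were seen.

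The 4 H/ACA genes differed by -0.08 to -0.15. DKC1, the pseudouridine synthase dyskerin, differed by -0.13 and its partners GAR1, NHP2 and NOP10 by -0.15, -0.13 and -0.08. GAR1 read 11.24, 11.17 and 11.23 in PTTG1+/+ cells and 11.11, 11.01 and 11.07 in PTTG1-/- cells, so its lines did not overlap, but its adjusted p was 0.187. All 4 GAR1 probes were negative, from -0.23 to -0.12, as were all 4 NHP2 probes, from -0.24 to -0.13. No H/ACA gene passed the test, and the smallest adjusted p among the GAR1 and NHP2 probes, each tested by itself, was 0.0844.

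The nucleolar phosphoproteins and regulators also lay below zero, 5 of 5, with a median of -0.17 and no call. NOLC1, the snoRNP chaperone Nopp140, was the closest to the threshold. It read 9.38, 9.38 and 9.37 in PTTG1+/+ cells and 9.19, 9.18 and 9.13 in PTTG1-/- cells, a difference of -0.21 with an adjusted p of 0.0676. NOLC1 was called lower under 7 of the 22 alternatives, among them the authors' values at an adjusted p of 0.0373. DDX21, a nucleolar RNA helicase, read 10.54, 10.62 and 10.60 against 10.20, 10.29 and 10.62. Its PTTG1-/- replicate 3 was at the level of the PTTG1+/+ arrays, and the difference of -0.22 had an adjusted p of 0.211. Without that array it was -0.34 with an adjusted p of 0.0201. NCL, the nucleolar protein nucleolin, differed by -0.16 and NPM3, a relative of nucleophosmin, by -0.07, and neither passed. LYAR, a nucleolar zinc finger protein, gave no settled direction. Its brighter probe read 10.50, 10.31 and 10.33 in PTTG1+/+ cells and 10.19, 9.90 and 10.55 in PTTG1-/- cells, a difference of -0.17. Its other probe read 10.17, 10.14 and 10.05 against 10.22, 10.28 and 10.48, a difference of 0.21. The first probe minus the second was lower on every PTTG1-/- array, by a mean of -0.38 (exact permutation p = 0.1). This pair of probes was also chosen after its values were seen.

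**Figure D3:**
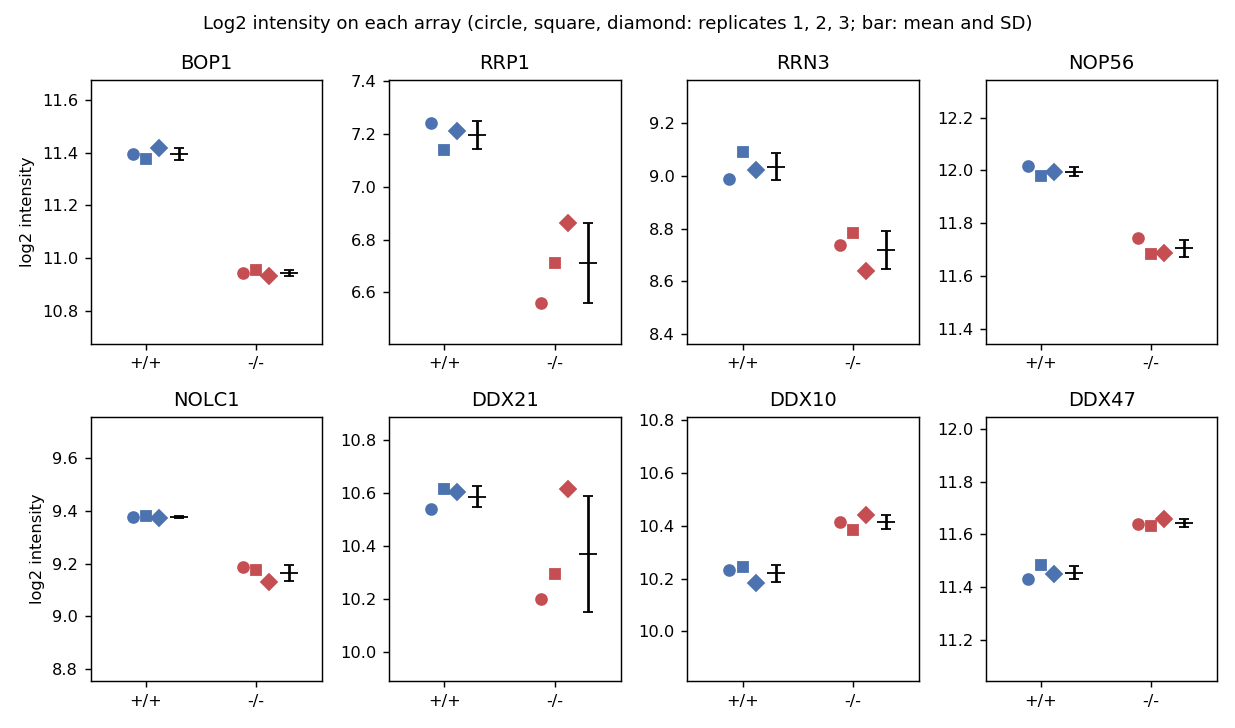
Log2 intensity on each array (symbols are replicates 1 to 3, bars the mean and SD) for the 4 members that fell, for NOLC1 and DDX21, and for DDX10 and DDX47. Each panel spans 1 log2 unit. The PTTG1-/- arrays of DDX21 spread from 10.20 to 10.62.

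The genes of large subunit assembly held the strongest falls, BOP1 and RRP1, among 14 tested genes with a median of only -0.04. BOP1 forms the PeBoW complex with PES1 and WDR12, which is needed to mature the RNA of the large subunit. The log2 intensity of BOP1 was 11.39, 11.37 and 11.42 in PTTG1+/+ cells and 10.94, 10.95 and 10.93 in PTTG1-/- cells. Each line was tight and the gap was wide, with a difference of -0.45 ± 0.0697 (SE, n = 3 per line), 1.37-fold lower, at an adjusted p of 0.00309 by limma. Before correction and normalization the intensities were 2801.5, 2602.3 and 2775.3 against 1887.1, 1978.3 and 2207.4. BOP1 was the 1 member called lower in each of the 22 alternatives, including each of the 6 that left out an array.

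The partners of BOP1 did not pass the test. PES1 read 7.94, 8.10 and 8.11 in PTTG1+/+ cells and 7.97, 8.16 and 7.89 in PTTG1-/- cells, a difference of -0.04 (95% interval from -0.25 to 0.17). WDR12 read 10.19, 10.09 and 10.18 against 9.98, 9.97 and 10.33, a difference of -0.06 (95% interval from -0.30 to 0.18). Within arrays, the log2 value of BOP1 minus that of PES1 was lower in PTTG1-/- cells by a mean of -0.41, and minus that of WDR12 by -0.39. In both pairs every PTTG1-/- array lay below every PTTG1+/+ array (exact permutation p = 0.1, the smallest that 3 arrays against 3 can give).

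RRP1, known from yeast as a factor of large subunit maturation, read 7.24, 7.14 and 7.21 in PTTG1+/+ cells and 6.56, 6.71 and 6.86 in PTTG1-/- cells. The PTTG1-/- arrays were more spread but all below, with a difference of -0.49 ± 0.0923 (SE, n = 3 per line), 1.40-fold lower, at an adjusted p of 0.00805 by limma. The call held without any 1 array, with adjusted p from 0.00528 to 0.0359. The size of the RRP1 difference depended on the background correction. It was -0.36 without correction and with the authors' values, and -0.38 at offset 50. A further RRP1 probe was not above background on any array. The related gene RRP1B differed by -0.14 with an adjusted p of 0.395, tested as a single probe.

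The other 12 large subunit genes did not pass the test. Of these, NOC3L, a large subunit assembly factor, differed by -0.11 and MRTO4, a large subunit factor related to the stalk protein P0, by -0.07. NOP16 differed by -0.05, FTSJ3, the counterpart of the yeast methyltransferase Spb1, by -0.03 and RRS1 by -0.03. The helicase DDX56 was at -0.0050, with a 95% interval from -0.22 to 0.21. On the other side, NIP7 differed by 0.05, PPAN by 0.10, NOP2, a cytosine methyltransferase of ribosomal RNA, by 0.11 and NOC2L by 0.17. NOC2L and NOC3L, which form a dimer in yeast, had arrays that did not overlap between the lines in opposite directions, with adjusted p of 0.227 and 0.334.

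The genes of small subunit assembly showed no common direction. Of 13 tested, 6 were below zero and 7 above, with a median of 0.02, and none passed the test. The helicases DDX10 and DDX47 came closest to the threshold on the higher side. DDX10 read 10.23, 10.24 and 10.18 in PTTG1+/+ cells and 10.42, 10.39 and 10.44 in PTTG1-/- cells. DDX47 read 11.43, 11.48 and 11.45 against 11.64, 11.63 and 11.66. Both had a difference of 0.19 with tight replicates, and adjusted p of 0.0924 and 0.0958. Each was called higher under 3 of the 22 alternatives, among them the methods' t-test at adjusted p of 0.0292 and 0.0169. TSR1, needed late in small subunit maturation, differed by 0.20 and PNO1, the partner of the endonuclease NOB1, by 0.15. WDR3, WDR75 and BYSL differed by 0.09, 0.02 and 0.07. WDR3 was above background on only 2 arrays of each line.

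On the lower side NOC4L, which in yeast acts with NOP14 on the small subunit, read 7.58, 7.41 and 7.52 against 7.35, 7.37 and 7.16. Its difference was -0.21 with an adjusted p of 0.132. NOP14 differed by -0.17 and RRP12 by -0.16, each with PTTG1-/- arrays all below, and adjusted p of 0.219 and 0.282. HEATR1, a large scaffold of the small subunit processome, differed by -0.10, the RNA acetyltransferase NAT10 by -0.03 and UTP3 by -0.0044. Of UTP3 the 95% interval ran from -0.31 to 0.30, while that of NAT10 ran from -0.19 to 0.13.

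Of the members, 16 were read by several probes above background, and in 11 of these all probes had the same sign. The probes disagreed for NOP14, NOP16, UBTF, TSR1 and LYAR, so the direction of these genes depends on the probe. TSR1 was at 0.20 by its brightest probe and at -0.10 by the other. DDX47 was at 0.19 and 0.21 by its 2 probes, NOC4L at -0.21 and -0.29 and NCL at -0.16 and -0.21. NOP2 was at 0.11, 0.24 and 0.11 by its 3 probes, and none passed when tested by itself (smallest adjusted p 0.103 by limma). With each probe tested by itself, 12.8% of the 17357 probes above background were called in either direction. By that test the brightest probes of BOP1, RRP1, RRN3 and NOP56 passed, at adjusted p of 0.00563, 0.0122, 0.0368 and 0.0367.

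**Figure D4:**
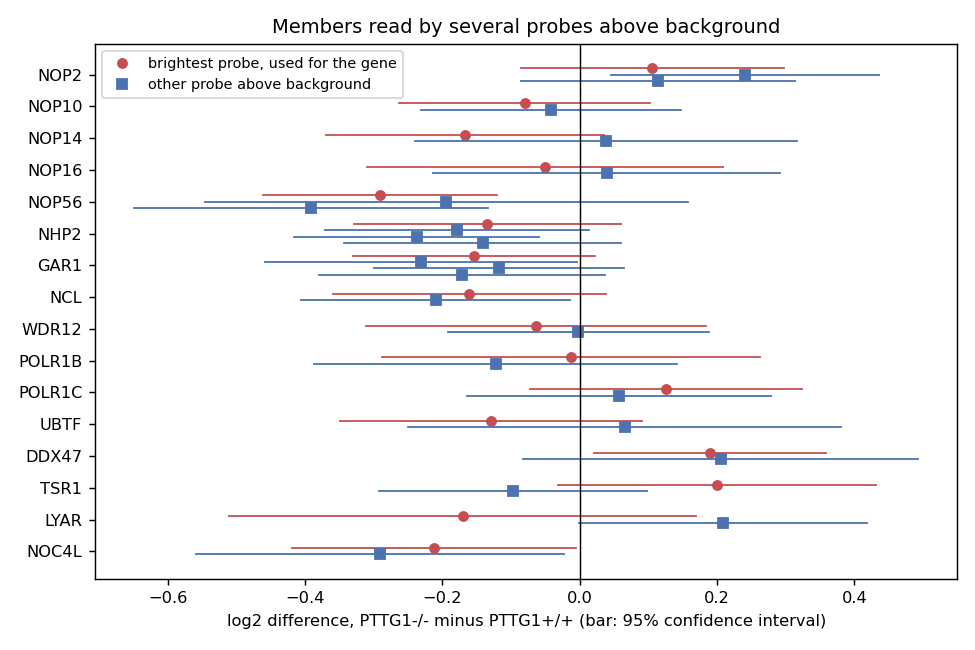
Log2 difference (PTTG1-/- minus PTTG1+/+) with its 95% confidence interval for each probe of the 16 members with more than 1 probe above background. Circles mark the brightest probe, used for the gene, and squares the others. The probes of LYAR lie on opposite sides of zero, at -0.17 and 0.21, and the 3 probes of NOP56 all lie below.

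The wider pathway was read from a list of other ribosome biogenesis factors. Of these, 102 were tested, 7 were lower (6.86%) and 0 were higher, with a median difference of -0.04. These shares stand beside 7.79% of all genes called lower and 9.58% called higher. At an unadjusted p under 0.05, 17 (16.7%) were lower and 5 (4.90%) were higher, beside 14.7% and 16.9% of all genes. Members and other factors together gave 147 genes, of which 11 fell, or 7.48%, and 0 rose, so the share that fell is near that of all genes. GNL3L, a nucleolar GTPase related to nucleostemin, read 7.46, 7.61 and 7.78 in PTTG1+/+ cells and 7.24, 7.18 and 7.05 in PTTG1-/- cells, a difference of -0.46 (1.37-fold lower, adjusted p 0.0146). EMG1, a pseudouridine methyltransferase of the small subunit, fell by 0.35 on the log2 scale (adjusted p 0.0168), UTP25 by 0.34 (adjusted p 0.0178) and the helicase DHX33 by 0.42 (adjusted p 0.0187). The remaining 3 had differences from -0.39 to -0.30. The count of 7 lower factors was 2 without PTTG1+/+ replicate 1 or PTTG1-/- replicate 2, 3 without PTTG1+/+ replicate 2 or 3, 4 without PTTG1-/- replicate 1 and 10 without PTTG1-/- replicate 3. Of all genes, 4.13% to 9.60% were called lower over these omissions, with 9.60% without PTTG1-/- replicate 3. EMG1 and DHX33 each missed the threshold when replicate 1 or 3 of PTTG1+/+ cells or replicate 2 of PTTG1-/- cells was left out, and UTP25 without PTTG1+/+ replicate 2 or 3, at adjusted p of 0.0545 to 0.0686, while GNL3L kept its call without any 1 array. Of 11 tested genes of the RNA exosome, which trims ribosomal RNA ends, EXOSC5 was lower at -0.32 with an adjusted p of 0.04999, and this call was lost without any 1 of the 6 arrays.

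Genes of the MYC network, which feeds into this pathway, were read alongside. MYC itself read 11.36, 11.46 and 11.39 in PTTG1+/+ cells and 11.25, 11.27 and 11.42 in PTTG1-/- cells. These overlapped, with a difference of -0.09 (95% interval from -0.27 to 0.09) and an adjusted p of 0.504. MXD4, which competes with MYC for MAX, rose from 8.40, 8.46 and 8.49 to 9.04, 8.99 and 9.15, 1.53-fold higher at an adjusted p of 0.00118. MNT, another repressor that binds MAX, fell from 7.88, 8.06 and 8.07 to 7.48, 7.49 and 7.29, 1.499-fold lower at an adjusted p of 0.00321. The other 6 of the 9 tested genes of this list did not pass the test.

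E-boxes stood near the start sites of many members. Promoter windows from RefSeq (GRCh38.p14), of 250 bases before and 50 after each start, were found for 44 of the 50 members. The E-box letters CACGTG, which read the same on both strands, were in the windows of 17 of these 44 genes, or 38.6%. They were in 34.0% of 94 other ribosome biogenesis factors, in 12.8% of 8612 genes tested on the arrays and in 8.77% of all 27305 genes. Counted by window, the motif stood after the start in 12 of 54 member windows, or 22.2%, against 1.10% of the windows of genes tested on the arrays. Motifs with 12 bases on each side are printed for 1 member of each role, the tested one whose motif lay closest to its start (no tested RNA polymerase I gene had one). The sequences run in the direction of the gene, with the E-box in capitals.
RRP9, at chr3:51941892-51941921, minus strand: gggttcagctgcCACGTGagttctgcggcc
GAR1, at chr4:109815781-109815810, plus strand: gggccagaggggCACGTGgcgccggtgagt
PES1, at chr22:30591880-30591909, minus strand: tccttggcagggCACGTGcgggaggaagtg
DDX21, at chr10:68956604-68956633, plus strand: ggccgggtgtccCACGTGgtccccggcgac
PNO1, at chr2:68157885-68157914, plus strand: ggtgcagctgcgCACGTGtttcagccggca

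**Figure D5:**
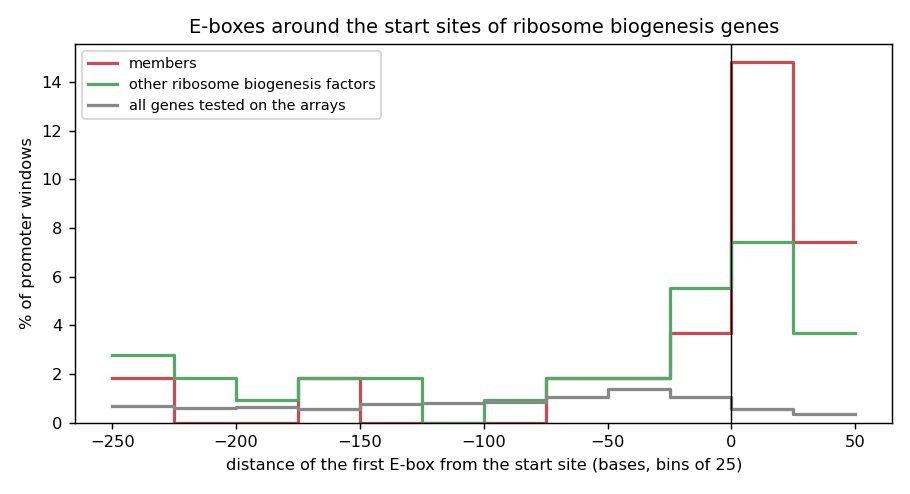
Share of promoter windows whose first E-box begins in each bin of 25 bases, from 250 bases before to 50 bases after the start site, for members, other ribosome biogenesis factors and all genes tested on the arrays. The members peak just after the start, where 22.2% of their windows hold the motif, against 1.10% for all genes tested.

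The genes just printed span the range of differences, with RRP9 at -0.16, GAR1 at -0.15, PES1 at -0.04, DDX21 at -0.22 and PNO1 at 0.15. Of the tested members with windows, the 14 with an E-box had a median difference of -0.09, with 11 below zero and 0 called. The 26 without one had a median of -0.02, with 17 below zero and 3 called, which were RRP1, RRN3 and NOP56. BOP1, also called lower, had no promoter window and is in neither group. The windows of RRP1, RRN3 and NOP56 did not hold the letters CACGTG, which says only that this motif is not in that stretch.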

How the data were processed

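RNA of 3 PTTG1+/+ and 3 PTTG1-/- HCT116 samples was read on Illumina beadchips. The authors deposited the intensity of each probe, not normalized, with a detection value headed as a p-value that rises with the intensity, so 1 minus it was used as the detection p-value. The authors' processed values, on a log2 scale, entered only as an alternative. They used the manufacturer's protocol, then Partek; the normalization is not given in the sources used here. Intensities of 47310 probes (12 lines without a probe name were left out) were background corrected in R 4.3.3 with limma 3.58.1 (neqc, offset 16), quantile normalized and put on a log2 scale. Probes with a detection p under 0.05 on at least 3 of the 6 arrays were kept (17357), named through the platform annotation (30107 probes with 1 gene, 8 with several, 17195 unnamed here) and reduced to the brightest per gene. Of the members' 74 probes 67 were kept. Lines were compared with lmFit and eBayes over all 10642 genes, with Benjamini-Hochberg adjustment, and single values by an exact two-sided permutation test.

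The members, the gene lists and the tests were chosen with earlier results of these data known. The rule names every member, MYC, and up to 4 genes with the smallest p among those called in each other list. Alternatives were other background corrections, normalizations, filters, ways to combine probes, variance models, the methods' t-test, a replicate block, a stricter threshold and omission of each array. The scripts were tested on simulated data. No slide or scan information was used, and the number of arrays limits the precision. Genome coordinates come only from RefSeq promoters of GRCh38.p14.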

Additional observations from a re-analysis of the deposited data

How the results depend on the processing

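The members called lower numbered 4 and those called higher 0. The lower count was 2 with median scaling and 1 with no normalization between arrays, and the median difference was -0.0596 and -0.0532 there. Of all genes, 4.09% and 3.58% were called lower there, against 7.79% in the main fit. Members lower numbered 5, with NOLC1 added, without background correction, at offset 50, with the authors' values, with no filter and trend and robust variance as separate settings. Without background correction, at offset 50 and with the authors' values, 9.18% to 9.29% of all genes were called lower. With no filter the share was 3.62% of 20037 genes. With trend and robust variance, 1011 of the 10642 genes were called lower, against 829 in the main fit. The lower count of members was 2 at an adjusted p under 0.01, and 7 with the methods' t-test unadjusted, beside 2.96% and 12.5% of all genes. Members called higher were 2 (DDX10 and DDX47) with trend and robust variance and with the methods' t-test, adjusted or not. Of all genes, 11.8%, 4.91% and 14.9% were called higher there. With the mean of the probes the median was -0.0419. Leaving out 1 array gave 2 to 5 members lower, 0 higher, and medians from -0.0838 to -0.0587. Of all genes, 4.13% to 9.60% were then called lower and 5.40% to 10.9% higher. The count of members lower was 2 without any 1 PTTG1+/+ array, beside 4.13% to 5.16% of all genes.

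The other ribosome biogenesis factors, 7 lower and 0 higher, gave 11 lower and 2 higher without background correction and with the authors' values, and 2 higher at offset 50. They gave 4 lower with median scaling, 2 with no normalization, 12 lower and 3 higher with trend and robust variance, 4 and 3 with the t-test adjusted, 14 and 6 unadjusted, and 0 lower at an adjusted p under 0.01. Leaving out 1 array gave 2 to 10 lower and 0 higher. Of all genes, 3.88% were called lower with the t-test adjusted. The shares or counts of all genes called lower under the other settings are given above for the members. Without background correction, at offset 50 and with the authors' values, 11.3% to 11.4% of all genes were called higher. Same-numbered arrays of the lines did not deviate together (r of -0.07, -0.0040 and -0.12). These values cannot decide whether the numbers pair samples, since paired samples need not deviate together over all genes. With the replicate number as a block, 2 members (BOP1 and RRP1) and 5 other factors were lower and 1 other factor was higher, and 12.6% of all genes were called, against 17.4%. The causes were not tested.

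BOP1 was called under all 22 alternatives. RRP1 missed the threshold with no normalization (adjusted p 0.0561) and the adjusted t-test (0.0596), NOP56 under 9 and RRN3 under 8. Over 988 pairs of a member and an alternative, 953 kept the side of the threshold, 19 lost a call and 16 gained 1. The sign turned in 25 pairs, over 11 members, none of them called in either fit. All 13 snoRNP and phosphoprotein genes stayed below zero except with the mean of the probes, where 12 did. Depth on arrays is limited by signal over background, and the NPM1 probe was not above it.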

Other observations

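Replicate 3 of the PTTG1-/- line read higher than the other PTTG1-/- arrays for several members of the snoRNP and phosphoprotein groups. DDX21 read 10.62 there against 10.20 and 10.29, NCL 12.39 against 12.16 and 12.24, NHP2 11.63 against 11.40 and 11.49, and NOP58 11.09 against 10.92 and 10.75. It was not higher for all members, since FBL read 11.50 there against 11.73 and 11.55 and NOP14 read 8.35 against 8.53 and 8.48. That array also had the highest total intensity, 1.67e+07, and the highest share of probes above background, 37.3%. These genes were picked after their values were seen, and no cause was tested.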
